A study of Mus musculus with 8 samples.

Results

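The 10 genes described here belong to the FGF4 and ERK feedback circuit of mouse embryonic stem cells. They are the ligands Fgf4 and Fgf5, the receptors Fgfr1 and Fgfr2, the ETS transcription factors Etv4 and Etv5, and the feedback inhibitors Spry2, Spry4, Spred1 and Dusp6. They were chosen by name, and each of the 10 matched 1 identifier among the 37310 genes counted in all 8 libraries. The study profiled polyadenylated RNA by sequencing after knockdown of eIF4A3, an RNA helicase that is a core part of the exon junction complex left on spliced messages. Its title links eIF4A3 to the identity of these cells.

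Each of the 4 groups had 2 libraries. In J1 cells, a 129S4/SvJae line, the control group carried a control knockdown and a control overexpression, the labelled knockdown group carried the eIF4A3 knockdown with the control overexpression, and the labelled Ccnb1 group carried the eIF4A3 knockdown with overexpression of Ccnb1, the gene of cyclin B1. The CCE cells, a 129/Sv line, carried the eIF4A3 knockdown, and no CCE control was analysed here. All cells were kept without feeders in serum with leukaemia inhibitory factor, transfected and drug-selected, then infected with lentivirus, held in puromycin and collected 4.5 days after infection. Each J1 group is the same parental line, and nothing in the labels says that replicates were grown separately, so p-values measure only the spread between these libraries, which may be technical.

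FGF4 is the ligand that mouse embryonic stem cells make themselves. It binds FGF receptors with heparan sulfate, signals through GRB2, SOS, RAS, RAF and MEK to ERK, and primes the cells to leave the naive state; in the blastocyst the same signal moves inner cell mass cells towards primitive endoderm. OCT4 and SOX2 are known activators of Fgf4, and active ERK raises Etv4, Etv5, Spry2, Spry4, Spred1 and Dusp6, of which the last 4 damp the cascade that induced them.

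Levels are given as CPM, the count of a gene scaled to a common total over all gene rows of a library, with the mean ± SD over n = 2 libraries. Total gene counts ran from 3596615 to 8340023 in J1 libraries and were 23966825 and 25574740 in CCE, so that 3 counts, taken here as the detection floor, equalled 0.360 to 0.834 CPM in J1 and at most 0.125 CPM in CCE. The labelled knockdown libraries stood apart from the rest: 40.8% and 45.2% of their reads were unaligned, against 15.7% to 15.9% in the other J1 libraries. Their replicates differed by 22.0 times the Poisson variance, against 3.41 times in control and 1.88 times in labelled Ccnb1. Of 1696 genes at 2 to 5 CPM in control, 20.3% had no count in either labelled knockdown library. The part of these differences in the results was not tested. The targeted gene went against the label of 1 library: Eif4a3 stood at 73.5 and 83.7 CPM in control, 75.7 and 37.5 in labelled knockdown, 47.3 and 53.5 in labelled Ccnb1 and 48.8 and 53.9 in CCE. The edgeR change of Eif4a3 was -0.63 on the log2 scale in labelled knockdown against control (adjusted p = 0.211). It was -1.25 and called without labelled knockdown replicate 1, and -0.25 and not called without replicate 2. The Ccnb1 gene itself did not follow its label: it stood at 136 and 131 CPM in labelled Ccnb1, 135 and 129 in control and 101 and 126 in labelled knockdown, with a difference of -0.06 from control (edgeR adjusted p = 0.814). Ccnb1 was also summed with Ccnb1-ps and Gm12856, taken as its copies without an alignment here, a sum chosen after its values were seen. The sum was 437 and 447 CPM in labelled Ccnb1, 166 and 165 in control, and 126 and 156 in labelled knockdown. In CCE, which has no Ccnb1 label, it was 247 and 262 CPM. All 10 embryonic stem cell markers examined were above 5 CPM in every library, but their sum was 8906 and 8899 CPM in control, 4508 and 4139 in labelled knockdown, 8823 and 8923 in labelled Ccnb1, and 4309 and 4795 in CCE. Their lower sum in labelled knockdown stood beside the lower Fgf4 and Spry2 levels given next, and its part in them was not tested.

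The labelled knockdown had lower RNA of Fgf4 and of 3 feedback inhibitors than control, and higher RNA of the receptor Fgfr1. Spry2 fell by 1.65 on the log2 scale, Fgf4 by 1.24, Spred1 by 1.15 and Spry4 by 0.85, whereas Fgfr1 rose by 1.29. That is 4 lower and 1 higher of 9 tested members, where 28.9% of all genes tested were called, 17.9% lower and 11.0% higher. Etv4 and Etv5, the most abundant members per kilobase in the labelled knockdown, did not pass the test. In the labelled Ccnb1 group the differences of Fgf4, Fgfr1, Spry2, Spry4 and Spred1 from control did not pass the test. Etv4 was 1.26 lower there on the log2 scale. With only the 2 groups compared, Fgfr1 (-0.35) and Spry2 (-0.25) were called lower than control and Spry4 (0.20) higher. Fgf4 and Spred1 were not called in that setting either. In these bulk libraries fewer cells of a type and less RNA per cell cannot be told apart.

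Fgf4, Spry2 and Spred1 are 3 of the members that fell, and the 250 bases before their RefSeq start sites (GRCm38.p6) are shown so that the letters of their promoters can be compared. Capitals mark matches on either strand to the GC box GGGCGG, the CCAAT box CCAAT or the TATA-like TATATA; these 3 motifs were chosen after the data had been seen.
Fgf4, chr7:144861136-144861385, plus strand: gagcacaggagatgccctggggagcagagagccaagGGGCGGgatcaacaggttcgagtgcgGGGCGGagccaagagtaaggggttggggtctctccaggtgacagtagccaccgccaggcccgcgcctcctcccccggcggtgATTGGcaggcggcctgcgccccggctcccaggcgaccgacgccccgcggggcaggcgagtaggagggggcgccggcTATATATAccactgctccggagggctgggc
Spred1, chr2:117120821-117121070, plus strand: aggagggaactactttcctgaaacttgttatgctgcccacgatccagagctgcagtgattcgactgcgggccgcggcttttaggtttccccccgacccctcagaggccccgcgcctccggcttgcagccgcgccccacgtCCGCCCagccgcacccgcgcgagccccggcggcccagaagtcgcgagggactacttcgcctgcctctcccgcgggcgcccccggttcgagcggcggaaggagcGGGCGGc
Spry2, chr14:105896820-105897069, minus strand: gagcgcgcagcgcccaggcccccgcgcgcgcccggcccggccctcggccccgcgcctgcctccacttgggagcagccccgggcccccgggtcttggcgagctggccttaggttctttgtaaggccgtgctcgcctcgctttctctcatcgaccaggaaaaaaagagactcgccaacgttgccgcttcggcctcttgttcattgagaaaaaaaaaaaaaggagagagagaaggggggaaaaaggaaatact
The Fgf4 window held 2 GC boxes, 1 CCAAT box and 2 overlapping TATATA matches, the Spred1 window held 2 GC boxes, and the Spry2 window held none of the 3. Of all 32851 promoter windows, 32.7% held the GC box, 33.8% the CCAAT box and 5.25% the TATATA motif. Their GC content was 71.2% for Fgf4, 70.8% for Spred1 and 62.4% for Spry2. RefSeq windows were matched for 7 of the 10 members, with 2 for Etv5. The ETS motif CCGGAAGT, the AP-1 motif TGANTCA, the octamer ATGCAAAT and the CRE motif TGACGTCA were searched on both strands. None of these 4 was in any of the 8 windows, against 2.88%, 6.75%, 1.60% and 1.55% of all windows. At such shares the lack of a match in 8 windows cannot set the members apart, and bases outside the windows were not searched. The shorter ETS core GGAAGT, which is part of the longer ETS motif and is in 19.7% of all windows, was in 1 Etv5 window.

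Fgf4 (ENSMUSG00000050917) encodes the secreted ligand. It stood at 242 and 252 CPM in control, 144 and 89.3 in labelled knockdown, 279 and 269 in labelled Ccnb1, and 48.8 and 53.9 in CCE. Both labelled knockdown libraries lay below both control libraries, and the CCE libraries lay lowest of all 4 groups, with a mean of 51.3 ± 3.58 CPM. The CCE counts of Fgf4, 1170 and 1378, nearly coincide with those of Eif4a3, 1169 and 1378, as the count tables hold them. The labelled knockdown libraries themselves differed by 1.61-fold. Against control, Fgf4 fell by 1.24 on the log2 scale (SE 0.21, 95% interval -1.75 to -0.72, edgeR adjusted p = 0.0108). Leaving out control replicate 1 or control replicate 2 ended the call, with adjusted p = 0.0895 and 0.102 at -1.31 and -1.23. Without labelled knockdown replicate 1 the difference was -1.65, and without replicate 2 it was -0.97.

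Between labelled Ccnb1 and labelled knockdown, Fgf4 rose by 1.31 on the log2 scale (SE 0.21, edgeR adjusted p = 0.00634). The difference between labelled Ccnb1 and control was 0.08, with an interval from -0.42 to 0.57. Each J1 group enters 2 of the 3 comparisons, so their values rest on shared libraries.

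Pou5f1, which encodes OCT4, and Sox2 were read beside Fgf4 as its known activators. Pou5f1 stood at 1847 and 1879 CPM in control, 945 and 935 in labelled knockdown, 1080 and 1051 in labelled Ccnb1, and 866 and 930 in CCE. Sox2 stood at 983 and 973 CPM in control, 423 and 368 in labelled knockdown, 1130 and 1157 in labelled Ccnb1, and 490 and 551 in CCE. Among the J1 groups the order of Sox2 was the order of Fgf4, with labelled Ccnb1 highest and labelled knockdown lowest. The difference between labelled Ccnb1 and control did not pass the test for Sox2 or for Fgf4. On the log2 scale it was 0.15 for Sox2 (edgeR adjusted p = 0.193, called in 6 of the 15 alternatives) and 0.08 for Fgf4 (edgeR adjusted p = 0.843). In CCE, Fgf4 lay below labelled knockdown and Sox2 above it. Pou5f1 in labelled Ccnb1 lay below both control libraries, whereas Fgf4 there lay above both. This Pou5f1 difference from control was -0.88 on the log2 scale (edgeR adjusted p = 0.000473), a lower call that held under all 15 alternatives. The part of either activator in the Fgf4 level was not tested.

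Over the 6 J1 libraries, the genes with patterns nearest to Fgf4 were Patz1, Mrpl50 and Grb2, at Euclidean distances of 0.128, 0.182 and 0.199 between log2 CPM profiles centred on each gene's mean, among 7678 candidates. Of the members, Spred1 was closest to Fgf4 at rank 21, Spry4 was at rank 352 and Spry2 at rank 583. These distances include differences between replicates as well as between groups. The ratio of labelled knockdown replicate 1 to replicate 2 was 1.61 for Fgf4, 1.97 for Spred1, 0.92 for Spry4 and 0.77 for Spry2.

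Fgf5 (ENSMUSG00000029337) encodes the ligand used as a mark of the primed epiblast. It had 2 and 3 counts in control, none in labelled knockdown, 0 and 5 in labelled Ccnb1, and 12 and 12 in CCE. In CPM these were 0.348 and 0.360 in control, 0 and 0.755 in labelled Ccnb1, and 0.501 and 0.469 in CCE. Fgf5 was therefore near or under the detection floor in every J1 library, did not pass the filter on low counts and was not tested. No fold is given.

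**Figure D1:**
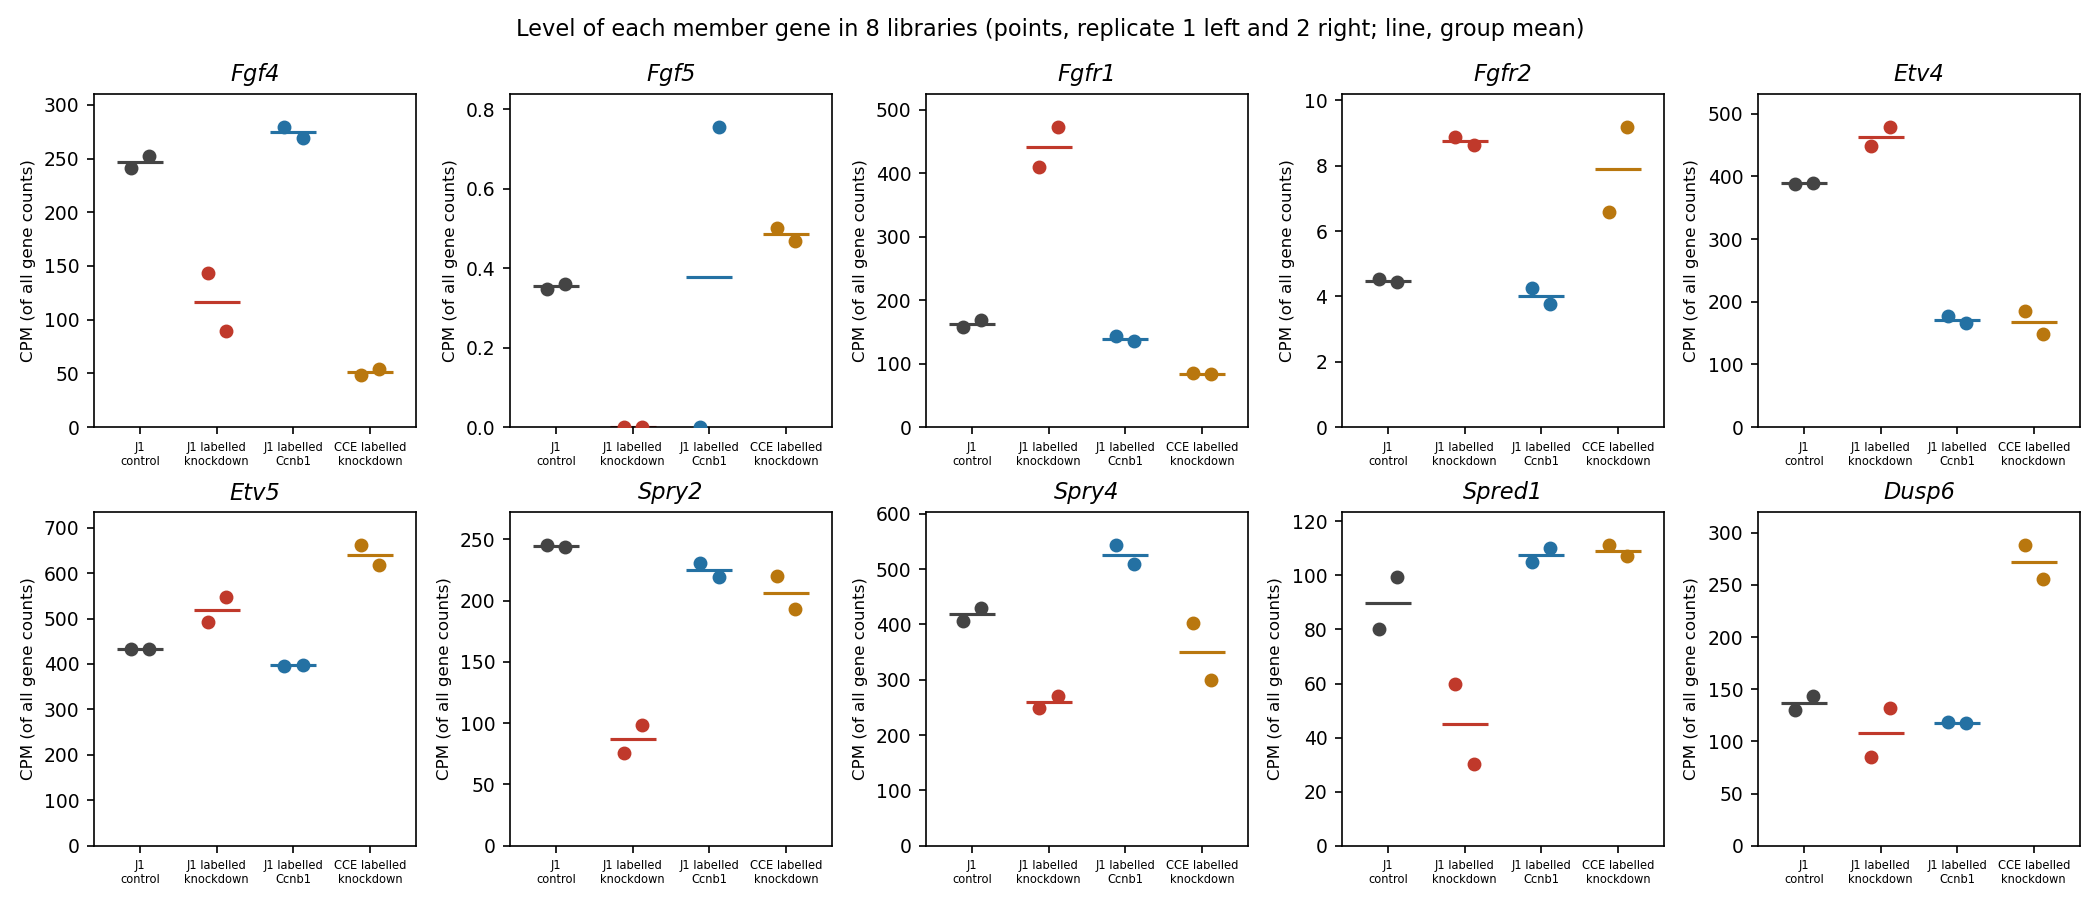
CPM of the 10 genes in each of the 8 libraries (points), with the mean of the 2 libraries of a group as a line, by group on the horizontal axis. Fgf4 and Spry2 are low in both labelled knockdown libraries and near the control level in labelled Ccnb1, Fgfr1 is high in both labelled knockdown libraries at 410 and 473 CPM, and Etv4 is low in labelled Ccnb1 and in CCE.

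Fgfr1 (ENSMUSG00000031565), the main FGF receptor of embryonic stem cells, stood at 157 and 168 CPM in control, 410 and 473 in labelled knockdown, 143 and 136 in labelled Ccnb1, and 85.2 and 83.4 in CCE. No library of 1 group overlapped another group, and the order from highest to lowest was labelled knockdown, control, labelled Ccnb1 and CCE. Fgfr1 rose by 1.29 on the log2 scale in labelled knockdown against control (SE 0.10, 95% interval 1.03 to 1.54, edgeR adjusted p = 0.00113). It fell by 1.58 from labelled knockdown to labelled Ccnb1 (SE 0.10, edgeR adjusted p = 0.000399). Both calls held under all 15 alternative settings. Between labelled Ccnb1 and control the difference was -0.30, with an interval from -0.55 to -0.04 and an adjusted p of 0.102 in edgeR, and 5 of the 15 alternatives called it lower.

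The annotated antisense gene Gm16159 overlaps Fgfr1 and had at most 1 count in each J1 library, but 96 and 131 counts in CCE. Whether the counting used strand is not given in the sources used here, so reads of the overlap cannot be told apart. The genes with patterns nearest to Fgfr1 over the 6 J1 libraries were Ascc2, Alkbh6 and Poll, at distances of 0.144, 0.165 and 0.176.

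Fgfr2 (ENSMUSG00000030849), the receptor that is higher in primitive endoderm than in epiblast, was scarce. It stood at 4.53 and 4.44 CPM in control, 8.87 and 8.62 in labelled knockdown, 4.26 and 3.78 in labelled Ccnb1, and 6.59 and 9.19 in CCE, on 25 to 39 counts a library in J1. Both labelled knockdown libraries lay above every other J1 library, but the difference from control was 0.81 on the log2 scale with an interval from -0.59 to 2.21 (edgeR adjusted p = 0.344). The difference between labelled Ccnb1 and labelled knockdown was -1.04, with an interval from -2.45 to 0.37 (edgeR adjusted p = 0.207). Changes of the size seen for Fgfr1 were inside both intervals, so for Fgfr2 they were neither shown nor excluded. Fgfr2 shares exonic bases with Ctbp2 on the same strand, which had 1101 to 2412 counts in the J1 libraries, and reads in the overlap are uncertain.

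The 8 primitive endoderm markers are given beside Fgfr2 and Fgf4 since this lineage responds to FGF. Their summed level was 12.5 and 15.3 CPM in control, 61.4 and 33.9 in labelled knockdown, 106 and 103 in labelled Ccnb1, and 110 and 144 in CCE. At most 1 of the 8 was at 0 in control, 3 and 4 were at 0 in labelled knockdown, and none was at 0 in labelled Ccnb1 or CCE. The 9 fibroblast markers summed to 18.8 to 39.9 CPM, with 5 or 6 at 0 in each J1 library. Trophectoderm markers summed to 39.0 and 47.1 CPM in control and 37.3 and 73.4 in labelled knockdown. They gave 67.3 and 77.2 CPM in labelled Ccnb1 and 228 and 294 in CCE. Neuroectoderm markers summed to 163 and 147 CPM in control and 112 and 129 in labelled knockdown. They gave 238 and 233 CPM in labelled Ccnb1 and 196 and 172 in CCE. Mesoderm markers summed to 8.01 to 22.8 CPM over all 8 libraries. The part of these cell types in the members' levels was not tested.

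Etv4 (ENSMUSG00000017724), an ETS transcription factor induced by ERK, stood at 387 and 390 CPM in control, 448 and 479 in labelled knockdown, 177 and 166 in labelled Ccnb1, and 185 and 149 in CCE. The labelled Ccnb1 libraries lay below all other J1 libraries and overlapped the CCE range. Against control, Etv4 in labelled knockdown differed by 0.10 on the log2 scale (95% interval -0.08 to 0.28, edgeR adjusted p = 0.368). It fell by 1.36 from labelled knockdown to labelled Ccnb1 (SE 0.08, edgeR adjusted p = 0.000257) and differed by -1.26 on the log2 scale between labelled Ccnb1 and control (adjusted p = 0.000773).

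Both lower calls for Etv4 in labelled Ccnb1 held under all 15 alternatives. An offset for GC content and length moved them most, to -0.63 against labelled knockdown and -0.77 against control. The same offset gave -0.13 in labelled knockdown against control, where library totals without TMM scaling gave 0.25 with an adjusted p of 0.0454 in edgeR, so the sign of that small difference turned with the setting.

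Etv5 (ENSMUSG00000013089), the closest relative of Etv4 among the members, had differences of the same sign as Etv4 in all 3 comparisons, of smaller size in those with labelled Ccnb1, and whether the sizes differ was not tested. It stood at 432 and 434 CPM in control, 492 and 546 in labelled knockdown, 395 and 398 in labelled Ccnb1, and 661 and 618 in CCE. No groups overlapped, and the whole range over the J1 libraries was 395 to 546 CPM. The difference of labelled knockdown from control was 0.11 on the log2 scale (95% interval -0.08 to 0.29, edgeR adjusted p = 0.343), and 0.26 with an adjusted p of 0.0417 on library totals without TMM scaling. From labelled knockdown to labelled Ccnb1 Etv5 fell by 0.31 (SE 0.07, edgeR adjusted p = 0.0241), a call that 7 of the 15 alternatives ended.

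The difference of Etv5 between labelled Ccnb1 and control was -0.20 (edgeR adjusted p = 0.121), and 4 of the 15 alternatives called it. Etv5 has a near-identical copy, Gm4798, at 98.6% identity over 1700 bases, which has no row in the count tables. Reads from such a copy may be lost or misplaced, so the Etv5 level is uncertain.

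Spry2 (ENSMUSG00000022114), a Sprouty protein that blocks receptor signalling to RAS, stood at 245 and 244 CPM in control, 75.5 and 98.4 in labelled knockdown, 230 and 219 in labelled Ccnb1, and 220 and 193 in CCE. The labelled knockdown libraries lay below all 6 others, and CCE overlapped labelled Ccnb1. Spry2 fell by 1.65 on the log2 scale in labelled knockdown against control (SE 0.14, edgeR adjusted p = 0.00140), the largest decrease of the 9 members tested. It rose by 1.45 from labelled knockdown to labelled Ccnb1 (SE 0.14, edgeR adjusted p = 0.00127). The difference between labelled Ccnb1 and control was -0.20, with an interval from -0.53 to 0.14, and 4 of the 15 alternatives called it.

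Spry4 (ENSMUSG00000024427), the second Sprouty member, stood at 407 and 430 CPM in control, 249 and 271 in labelled knockdown, 543 and 509 in labelled Ccnb1, and 402 and 299 in CCE. Labelled Ccnb1 lay above and labelled knockdown below control, with no overlap in J1. It fell by 0.85 on the log2 scale in labelled knockdown against control (SE 0.08, edgeR adjusted p = 0.00192) and rose by 1.10 from labelled knockdown to labelled Ccnb1 (SE 0.08, edgeR adjusted p = 0.000530). Both calls, and the Spry2 calls, held under all 15 alternatives. Labelled Ccnb1 exceeded control by 0.25 (95% interval 0.06 to 0.45, edgeR adjusted p = 0.0765), a difference that 6 of the 15 alternatives called.

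Spred1 (ENSMUSG00000027351), a Sprouty-related inhibitor that acts with neurofibromin on RAS, stood at 80.3 and 99.3 CPM in control, 59.8 and 30.3 in labelled knockdown, 105 and 110 in labelled Ccnb1, and 111 and 107 in CCE. The labelled knockdown libraries lay below the others but differed 1.97-fold between themselves. Spred1 fell by 1.15 on the log2 scale in labelled knockdown against control (SE 0.31, edgeR adjusted p = 0.0436), and rose by 1.33 from labelled knockdown to labelled Ccnb1 (SE 0.31, edgeR adjusted p = 0.0224). The first call was lost in 8 of the 15 alternatives and the second in 6. Leaving out control or labelled Ccnb1 libraries gave adjusted p values from 0.121 to 0.243 for the first, and the values were -1.75 and -0.78 without labelled knockdown replicate 1 and 2. With the GC and length offset the second was 0.61 (adjusted p = 0.186 in edgeR).

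Dusp6 (ENSMUSG00000019960), the cytoplasmic phosphatase that removes the activating phosphates of ERK, stood at 130 and 143 CPM in control, 85.0 and 132 in labelled knockdown, 119 and 117 in labelled Ccnb1, and 288 and 256 in CCE. In the labelled knockdown, 1 library was inside the control range and the other was the lowest of all 8, and the CCE libraries lay above every J1 library. The difference of labelled knockdown from control was -0.49 on the log2 scale (95% interval -1.03 to 0.04, edgeR adjusted p = 0.148). It was 0.20 between labelled Ccnb1 and labelled knockdown (95% interval -0.33 to 0.74, adjusted p = 0.509) and -0.29 between labelled Ccnb1 and control (95% interval -0.82 to 0.24). Without labelled knockdown replicate 2 the first difference was -0.88 and was called, and without replicate 1 it was -0.23 and was called. The second difference was 0.62 and was called without replicate 2, and -0.04 without replicate 1. The third was called in 4 of the 15 alternatives. In the fits without a labelled knockdown library the lone library is assumed to vary like the other groups. The nearest patterns to Dusp6 over the J1 libraries were Cyc1, Mras and Actr8, at distances of 0.105, 0.117 and 0.134.

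In labelled knockdown against control the median change of the 9 members tested was -0.49 on the log2 scale, and over all 14462 genes tested it was -0.08. Without labelled knockdown replicate 1 or 2 the members' median was -0.23 or -0.78. From labelled knockdown to labelled Ccnb1, 4 members were higher (Fgf4, Spry2, Spry4 and Spred1) and 3 lower (Fgfr1, Etv4 and Etv5), where 38.8% of all genes were called, 22.8% higher and 16.0% lower. The members' median was 0.20 against 0.14 over all genes, and it was -0.04 or 0.62 without labelled knockdown replicate 1 or 2. In labelled Ccnb1 against control 1 member, Etv4, was lower and none was higher, where 19.8% of genes were called, 9.35% higher and 10.5% lower. The median there was -0.20 against 0.07 over all genes. The fit behind this comparison also held the labelled knockdown libraries. Their replicates differed by 22.0 times the Poisson variance, against 3.41 times in control and 1.88 times in labelled Ccnb1. With only the 2 groups compared, 5 members were lower and 1 higher, with 4373 genes higher and 4285 lower of the 13945 tested in that setting. A member not called in the joint fit is therefore not shown to be at the control level.

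**Figure D2:**
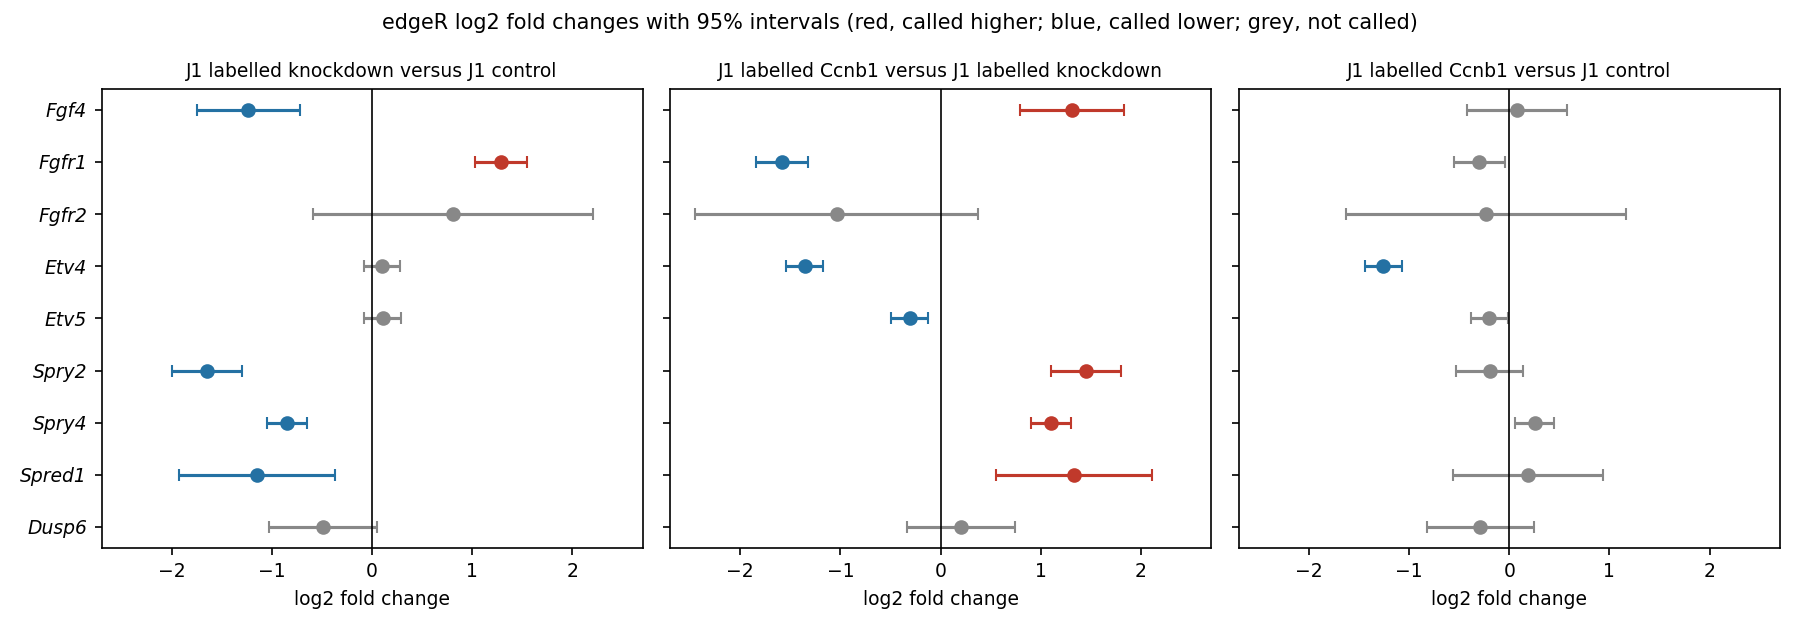
Log2 fold change (horizontal axis) with its 95% interval from edgeR, red where called higher, blue where called lower and grey where not called, for the 9 members tested, by comparison on separate panels. Spry2 at -1.65 and Fgfr1 at 1.29 lie at opposite ends in labelled knockdown against control, Fgf4, Spry2, Spry4 and Spred1 lie above 0 in labelled Ccnb1 against labelled knockdown, and Etv4 alone lies far from 0 in labelled Ccnb1 against control.

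Members were compared with one another per kilobase of exon. In control, Etv4 (125 CPM per kb), Spry2 (117) and Etv5 (106) stood highest, above Spry4 (88.0), Fgf4 (77.3) and Dusp6 (43.6). Fgfr1 (16.5 CPM per kb) and Spred1 (13.2) came next, and Fgfr2 (0.434) and Fgf5 (0.142) were lowest. In the labelled knockdown Etv4 (149 CPM per kb) and Etv5 (126) led and Spry2 stood at 41.7, below Fgfr1 at 44.7. In labelled Ccnb1, Spry4 (111 CPM per kb) and Spry2 (108) led, and Etv4 stood at 55.1. In CCE, Etv5 (156 CPM per kb) led, and Fgf4 stood at 16.1 beside Spred1 at 16.1. Lengths are exon lengths of all annotated isoforms together, so the levels are per annotated base, not per transcript made.

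**Figure D3:**
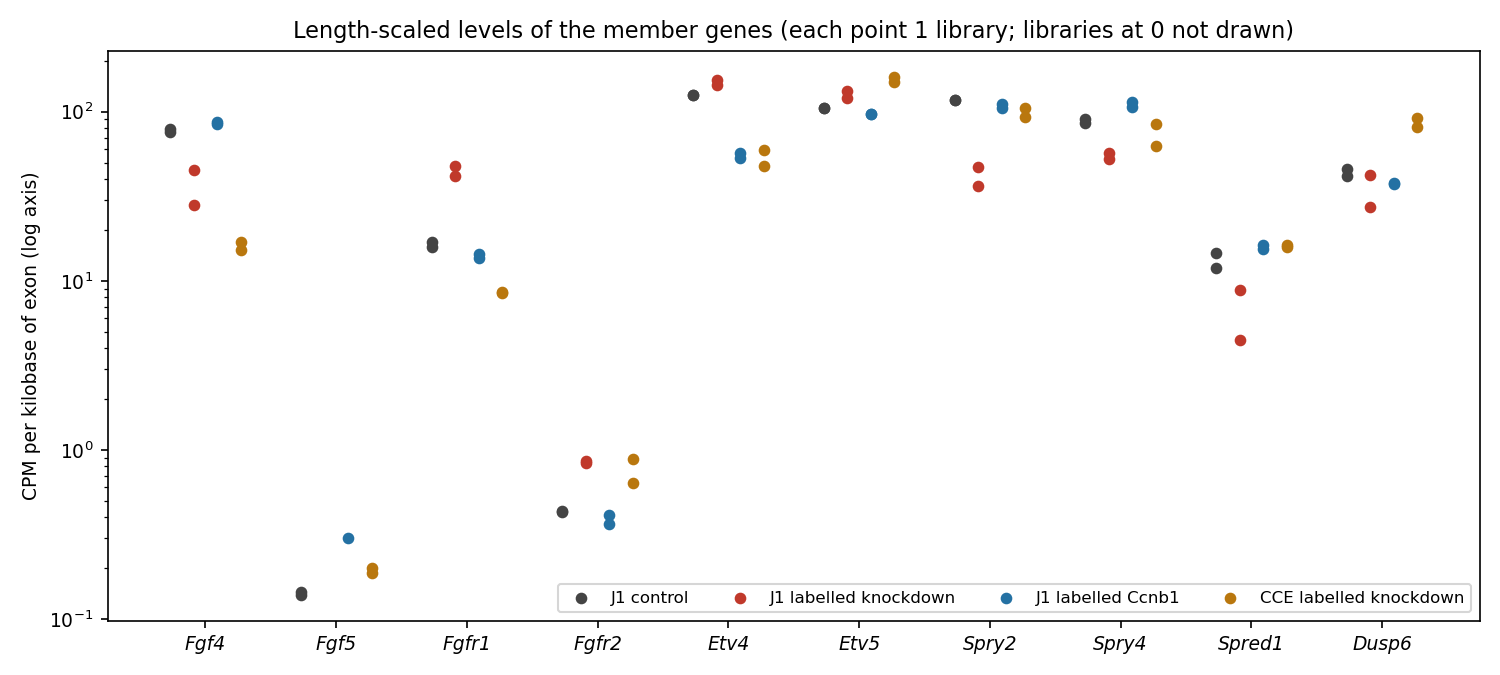
Level per kilobase of exon in each library (points, coloured by group) for the 10 genes, in CPM per kb on a log axis, with libraries at 0 not drawn. Etv4 and Etv5 lead in labelled knockdown at means of 149 and 126, Spry4 and Spry2 lead in labelled Ccnb1, and Fgfr1 is higher in labelled knockdown, at a mean of 44.7, than in any other group.

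The other genes of the pathway were taken from 7 lists of ligands, receptors, heparan sulfate enzymes and carriers, adaptors, the RAS-RAF-MEK-ERK cascade, further negative regulators and genes that respond to ERK. Of their 99 tested genes, 13 were higher and 18 lower in labelled knockdown against control, with a median of -0.27 on the log2 scale, where 11.0% and 17.9% of all genes tested were called and their median was -0.08; from labelled knockdown to labelled Ccnb1, 27 were higher and 11 lower (median 0.62, against 22.8%, 16.0% and 0.14 over all genes), and in labelled Ccnb1 against control 21 were higher and 5 lower (median 0.42, against 9.35%, 10.5% and 0.07 over all genes). With genes lacking counts in a group set to their bound at 3 counts over the group, the first median was -0.24 and the others were the same.

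Among the 19 tested negative regulators beyond the members, 5 fell and none rose in labelled knockdown against control, and 6 rose and none fell from labelled knockdown to labelled Ccnb1. Over all genes tested 17.9% were lower and 11.0% higher in the first comparison, and 22.8% higher and 16.0% lower in the second. In labelled Ccnb1 against control 4 were higher and none lower, where 9.35% and 10.5% of all genes tested were. These were Spred2 (0.52 on the log2 scale), Il17rd (0.65), Errfi1 (1.57) and Dusp1 (1.00), each call lost in 4 to 7 of the 15 alternatives. Errfi1 and Dusp1 were not called in labelled knockdown against control. Erf, an ETS repressor controlled by ERK, fell by 1.28 (SE 0.10, edgeR adjusted p = 0.00107) and rose by 1.62 between labelled knockdown and labelled Ccnb1, with mean levels of 518, 237 and 687 CPM in control, labelled knockdown and labelled Ccnb1. Il17rd, an inhibitor of FGF receptors, fell by 1.18 (SE 0.18) and Spred2 by 0.93 (SE 0.10), and they rose by 1.83 and 1.45 in the comparison with labelled Ccnb1.

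Of the 12 adaptor genes tested, 3 were higher and 3 lower in labelled knockdown against control, where 11.0% and 17.9% of all genes were; the same shares stand beside the next lists. Gab1, a docking protein for GRB2 and SHP2, fell by 0.54 (edgeR adjusted p = 0.0149), Sos1 rose by 0.91 and Plcg1 rose by 0.93; the Gab1 call was lost in 5 of the 15 alternatives, the Sos1 call in 4 and the Plcg1 call in 1. In the RAS-RAF-MEK-ERK list, 1 rose and 3 fell of 17. Araf, a RAF kinase, rose by 0.81 (edgeR adjusted p = 0.0215), a call lost in 5 of the 15. The heparan sulfate list had 4 higher and none lower of 18, led by Sdc4, a cell-surface proteoglycan, at 76.6 CPM in control and 480 in labelled knockdown on average (log2 change 2.49).

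Of the 19 ERK response genes tested, 3 were higher and 3 lower in labelled knockdown against control. Jun, an AP-1 subunit, rose by 2.94 (edgeR adjusted p = 0.000719), Btg2 rose by 1.75 and Ier2 fell by 0.57. Egr1 and Fos, other early genes of the pathway, had changes of 0.27 and 1.65 that did not pass the test (adjusted p = 0.559 and 0.123 in edgeR).

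Among the other receptors and ligands, Fgfr4 rose by 2.95 in labelled knockdown against control (edgeR adjusted p = 0.00393), on 21 and 44 counts in control and 175 and 136 in labelled knockdown. Fgfr3 had 18 and 17 counts in control and 1 and 0 in labelled knockdown, Fgf3 had 16 and 53 against 1 and 0, Fgf8 had 16 and 12 against 0 and 0, and Fgf11 had 24 and 11 against 0 and 0. Loss of low-count genes in the labelled knockdown libraries, 20.3% at 2 to 5 CPM in control, was measured beside these, and its part was not tested.

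In labelled Ccnb1 against control, where Fgf4 did not differ beyond the threshold, 6 of the 12 adaptor genes were higher and none lower, where 9.35% and 10.5% of all genes were. Leaving out 1 library moved the number of all genes called higher there from 1352 to between 96 and 4858. Crkl rose by 2.21 on the log2 scale, Gab1 by 0.90 and Ptpn11, the gene of the phosphatase SHP2, by 0.77, and the last 2 calls were lost in 4 and 5 of the 15 alternatives. The ligand Fgf1 rose by 2.96 (edgeR adjusted p = 0.0220), from 9.58 and 2.88 CPM in control to 51.6 and 48.8 in labelled Ccnb1, with 18.4 and 12.2 in labelled knockdown. Hras, a RAS protein, fell by 1.08, and this call and that of Fgf1 were each lost in 4 of the 15. Jun rose by 2.31 and Sdc4 by 1.49, so that both were higher than control in each of the labelled J1 groups.

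**Figure D4:**
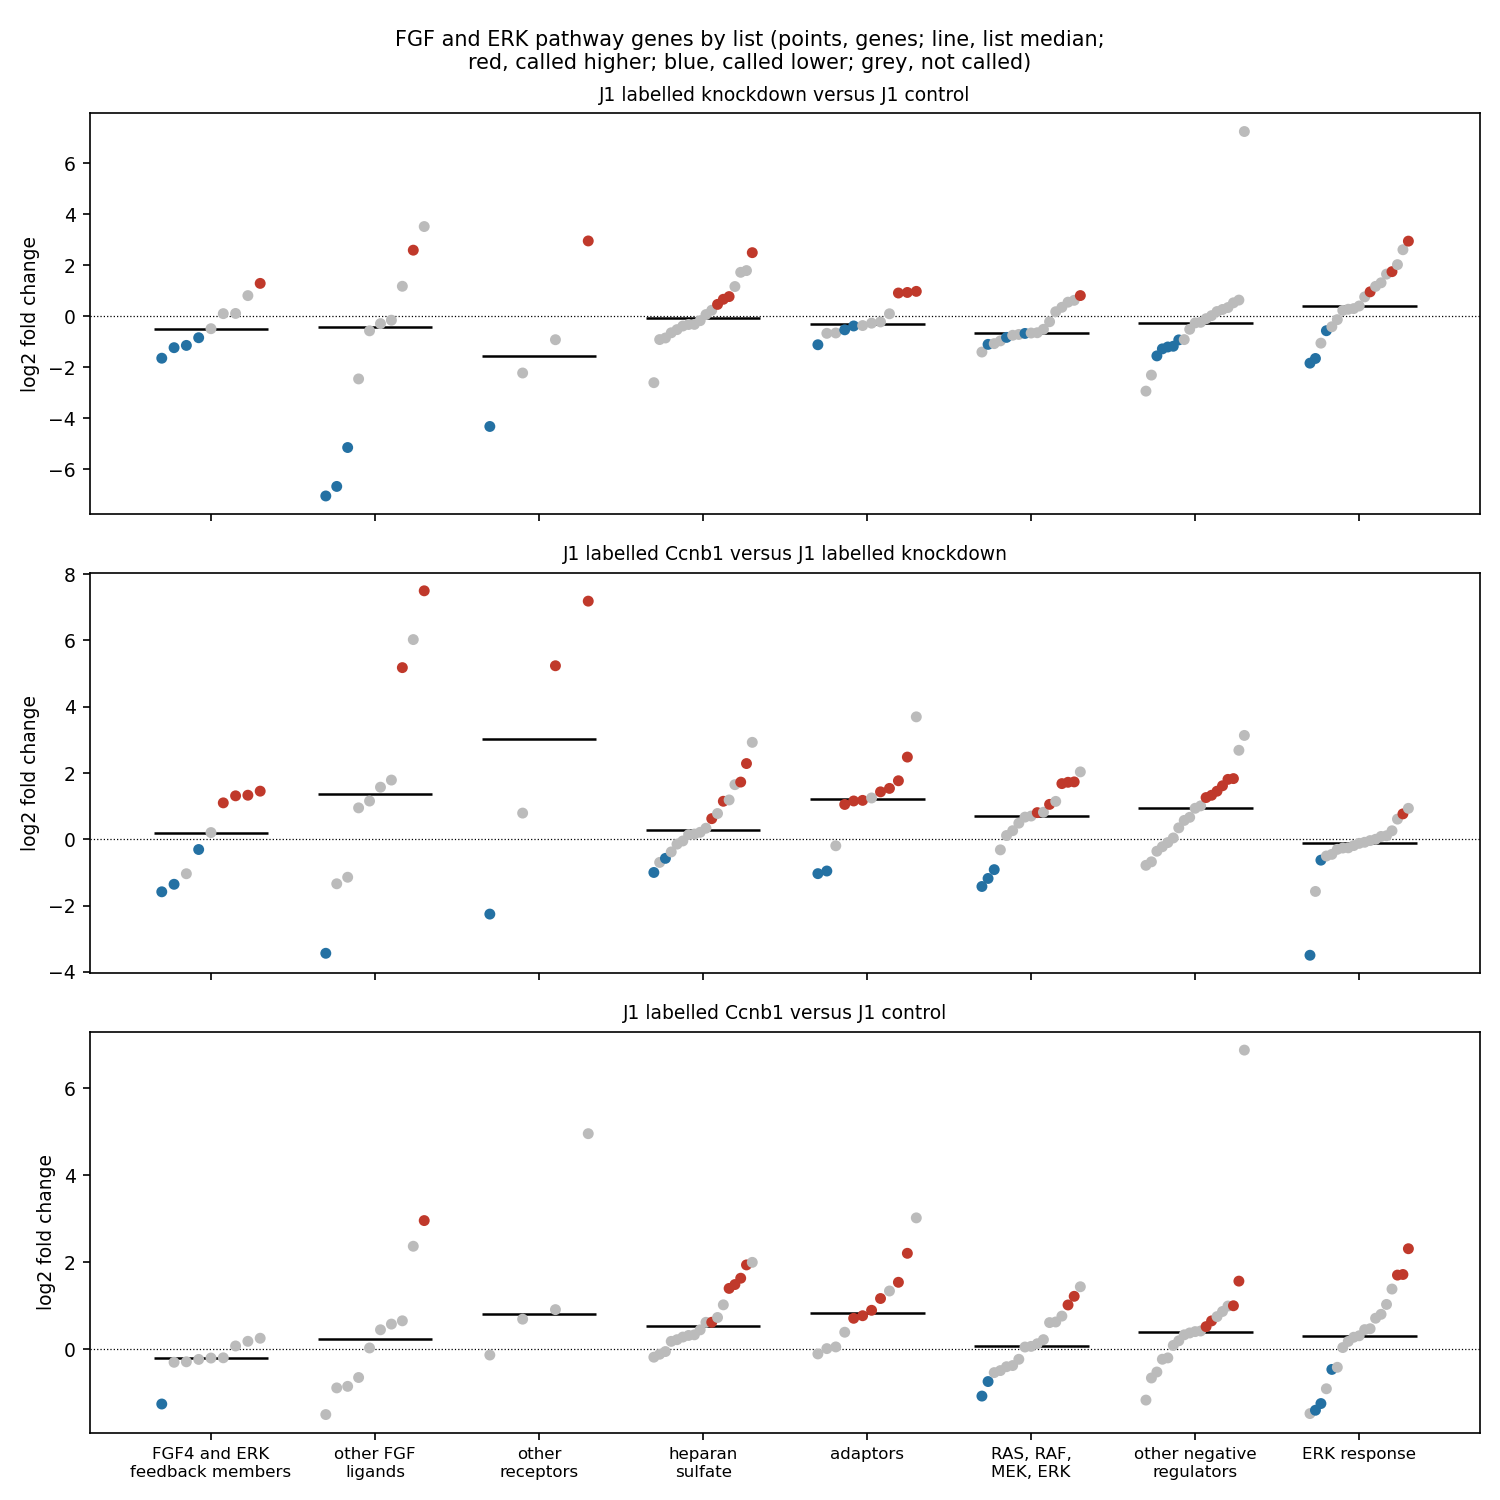
Log2 fold change of each tested gene (points; red called higher, blue called lower, grey not called) with the median as a line, for the members and 7 pathway lists, on 1 panel for each comparison; fitted values of genes with no counts in a group depend on the prior count. The list of other negative regulators has 0 higher and 5 lower of 19 in labelled knockdown against control and 6 higher and 0 lower from labelled knockdown to labelled Ccnb1. Over all genes tested, 11.0% were higher and 17.9% lower in the first, and 22.8% higher and 16.0% lower in the second. In labelled Ccnb1 against control the list has 4 higher and 0 lower, where 9.35% and 10.5% of all genes tested were.

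In the CCE line no control was analysed here, so the levels are values only, and line, sequencing and knockdown cannot be told apart. CCE libraries had 48.5% and 49.5% of their reads outside annotated features, against 11.9% to 13.9% in J1, but the J1 totals include unaligned and low-quality reads (20.6% to 33.7% low-quality) and the CCE files list 0 of both, so these shares have different denominators. Fgf4 was lower and Dusp6, Etv5 and Spred1 were higher than in both J1 control libraries, and Etv4, Fgfr1, Spry2 and Spry4 were lower than in both. Of neighbouring groups in the order of levels, CCE overlapped labelled knockdown for Fgfr2, and overlapped labelled Ccnb1 for Etv4, Spry2, Spred1 and Fgf5.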

How the data were processed

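RNA of 8 mouse embryonic stem cell libraries was measured; the files hold counts per gene as deposited by the authors. Per the submitters' processing notes, the authors used the genome build mm9, HTSeq 0.11.2, SAMtools 1.9, the aligner Bowtie2 2.3.4.3 and the package edgeR 3.26.8, and per the labels' protocols reads were single-end 100 bp or paired-end 150 bp. Rows of unaligned, ambiguous or unassigned reads were left out of library totals; ambiguous reads were 0.328% to 0.594%. Symbols matched 32620 of 37310 identifiers.

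The 6 J1 libraries entered 1 quasi-likelihood fit in edgeR 4.0.16 (R 4.3.3), with TMM scaling and a filter on low counts that left 14462 genes, for 3 comparisons. Tests were two-sided with Benjamini-Hochberg adjustment over all genes tested and a threshold of 0.05. CCE libraries entered no fit. DESeq2 1.42.0, other scalings and filters, a GC and length offset, a replicate block and leaving out each library were alternatives, 15 for each comparison. The fits were tested on simulated data. Copies were sought with BLAST.

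The members and lists were chosen with earlier results of these data known. Named were all members, Eif4a3, Ccnb1, Pou5f1 and Sox2; up to 3 called genes of smallest adjusted p in each pathway list and comparison; and the 3 genes of nearest pattern to Fgf4, Fgfr1 and Dusp6. Egr1, Fos and the copies of Ccnb1 were named after their values were seen. Not every gene under this rule is reported here.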

Additional observations from a re-analysis of the deposited data

Results flagged for a closer look

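Mean levels in the CCE libraries, which entered no comparison, stood above both J1 control libraries for 5 members. These were Etv5 at 640 CPM, Dusp6 at 272 CPM, Spred1 at 109 CPM, Fgfr2 at 7.89 CPM and Fgf5 at 0.485 CPM. With no CCE control, line and knockdown cannot be told apart, and these differences were not tested.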

How the results depend on the processing

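Over the 15 alternatives, 405 values of the 9 tested members were recomputed, of which 353 kept their side of the threshold, 23 lost a call and 29 gained one. The sign turned in 4 of the 405, none of them called: Etv4 (-0.13) in labelled knockdown against control and Spred1 (-0.53) in labelled Ccnb1 against control with the GC and length offset, Etv5 (-0.0043) in labelled knockdown against control without labelled knockdown replicate 2, and Dusp6 (-0.04) in labelled Ccnb1 against labelled knockdown without replicate 1. Of 1637 values of the other named genes, 214 lost a call and 77 gained one. Genes higher in labelled knockdown against control numbered 1591, against 973 with the replicate block, 740 with only the 2 groups and 2596 by DESeq2; lower ones numbered 2593, against 1658 and 1020. Without TMM scaling the higher genes made up 49.0% of the genes called there, in either direction, against 38.0% with it. The median change over all genes tested moved from -0.08 to 0.06, and 3 members were higher rather than 1. In labelled Ccnb1 against control, genes higher numbered 1352, against 887 with the block, 736 with the GC and length offset, 4460 with counts divided by replicate spread, 4373 with only the 2 groups and 2364 by DESeq2; lower ones numbered 1513, against 3925, 4285 and 2292 in the last 3 of these. Members higher there numbered 1 in place of 0 without TMM scaling, with spread-divided counts, with only the 2 groups and by DESeq2; members lower numbered 5, 5 and 2 in place of 1 in the last 3 of these. Leaving out 1 library gave 222 to 4336 higher and 479 to 5889 lower in labelled knockdown against control (members 1 to 2 and 2 to 5), 1011 to 6578 and 661 to 4500 in labelled Ccnb1 against labelled knockdown (members 3 to 5 and 2 to 3), where 3295 and 2321 were called, and 96 to 4858 and 158 to 3958 in labelled Ccnb1 against control (members 0 to 1 and 1 to 5). With the replicate block, members lower in labelled knockdown against control numbered 3 in place of 4, since Spred1 was lost (-1.18, edgeR adjusted p = 0.0784), and the block changed no other member call. Libraries share only a replicate number: deviations of same-numbered libraries correlated at 0.00888, 0.00112 and 0.00157 over 7899 genes. Eif4a3 in labelled Ccnb1 against labelled knockdown was 0.55 and -0.44 without labelled knockdown replicate 1 and 2 in turn, and with the offset Sos1 turned to -0.20 and Ier2 to 0.20 in labelled Ccnb1 against control; the cause was not tested. The ETS core in place of the longer motif gave 1 member in place of 0. Levels near 5 CPM and below, as for Fgfr2 and Fgf5, are limited by depth.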
